A study of Mus musculus with 6 samples.

Results

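Genes known from the ovarian surface epithelium and from mesothelium were followed in whole mouse ovaries with and without the receptor for follicle-stimulating hormone. The list named 10 genes: Upk1b, Upk3b, Msln, Lrrn4, Muc16, Gpm6a, Bnc1, Wt1, Cdh1 and Crb2. A gene was taken as measured where the platform annotation gave a probe set exactly 1 symbol equal to its name, and where a gene had several, the 1 with the brightest average over all 6 arrays stood for it. This found 9 of the 10 genes, with 14 probe sets, among 18194 genes named in this way; Crb2 was matched to no probe set and is not analysed here. The genes were chosen with earlier results of these data known.

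The samples were whole ovaries of 8-month-old female mice bred from heterozygous parents on the 129T2/SvEmsJ background, with both ovaries pooled for each RNA sample. The 3 wild-type (WT) samples carried the receptor gene Fshr, and the 3 FORKO (FSH receptor knockout) samples came from mice in which every form of the receptor had been deleted. Each RNA sample was read on 1 Affymetrix array of the whole mouse genome, which measures a gene through 1 or more sets of short probes. Titles and genotype fields name the groups; other free-text fields of the FORKO samples call the mice wild type, a conflict that the labels do not settle. The labels name no tissue to which the deletion was limited, so these are not ovaries altered in the surface layer alone. The labels also do not say how many mice gave each sample, so the tests measure the spread between these samples only.

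The ovary is covered by a single layer of epithelium that is continuous with the mesothelium, the lining of the body cavity. This layer keeps features of both epithelial and mesenchymal cells: it makes keratins and membrane glycoproteins that keep the surface smooth, and it carries transcription factors such as Wt1 that mark tissue derived from the coelomic lining. It is opened at each ovulation and repaired afterwards. In a whole ovary it is a small part of the tissue, and several of its genes are also active elsewhere: Wt1 in granulosa cells, Bnc1 in oocytes, Gpm6a in nerve cells, Cdh1 in the epithelium of the oviduct.

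Promoter windows from RefSeq (build GRCm38.p6), each 300 bases from 250 before to 50 after an annotated start, were matched by symbol for 6 of the 10 genes, with 7 windows. Printed here are those of the genes whose FORKO signals all lay above all WT signals and that have an entry, since these genes carry the comparison below (of Gpm6a, the first of its annotated starts); Cdh1, Upk1b, Msln and Wt1 had no entry. Capitals mark matches, on either strand, to the letters GNGNGGGNG, a core of the sites bound by Wt1 and by the related EGR proteins, and to CACCTG, the E-box bound by the Snail and Zeb repressors that act on Cdh1 in epithelial cells.
Upk3b (chr5:136038246-136038545, plus strand): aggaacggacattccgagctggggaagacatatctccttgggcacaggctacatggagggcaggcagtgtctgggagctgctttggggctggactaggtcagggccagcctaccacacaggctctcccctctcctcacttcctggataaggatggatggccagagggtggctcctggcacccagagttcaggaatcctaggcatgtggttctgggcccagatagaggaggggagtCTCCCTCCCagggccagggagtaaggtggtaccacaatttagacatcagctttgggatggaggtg
Gpm6a (chr8:54779184-54779483, plus strand): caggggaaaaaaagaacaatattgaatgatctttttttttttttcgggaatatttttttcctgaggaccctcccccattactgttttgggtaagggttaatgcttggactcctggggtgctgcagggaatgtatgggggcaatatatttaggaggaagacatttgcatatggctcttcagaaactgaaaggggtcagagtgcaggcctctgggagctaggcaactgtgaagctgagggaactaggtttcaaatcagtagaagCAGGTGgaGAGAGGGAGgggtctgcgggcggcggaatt
Lrrn4 (chr2:132880813-132881112, minus strand): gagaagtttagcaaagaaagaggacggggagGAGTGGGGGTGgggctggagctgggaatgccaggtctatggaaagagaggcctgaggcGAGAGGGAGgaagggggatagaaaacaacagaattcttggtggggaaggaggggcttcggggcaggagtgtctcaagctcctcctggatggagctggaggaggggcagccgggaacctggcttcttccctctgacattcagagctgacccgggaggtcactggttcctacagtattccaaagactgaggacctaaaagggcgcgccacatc
The first motif was found in 6 of the 7 windows and in 39.6% of all 32851 windows of this length. Those 6 include the window of Crb2, which was not measured. The motif is rich in G, and the GC share of the 6 ran from 46.7% (Muc16) to 83.3% (Bnc1), against a median of 52.7% over all windows. Enrichment of the motif was not tested. The second motif was found in 1 of the 7 windows, that of Gpm6a shown above, and in 20.2% of all windows. Matches to the 2 motifs did not overlap. The windows were unlike each other in composition: 2 CpG dinucleotides in that of Upk3b, 4 in that shown for Gpm6a, 7 in that of Lrrn4 and 1 in that of Muc16, against 50 in that of Bnc1 and a median of 7 over all windows. The window printed for Lrrn4 lies within the annotated span of that gene (chr2:132866686-132894010), not at its outer end. A match describes letters only and is neither a binding site nor a cause of a change.

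Signals below are linear MAS5 intensities, each array brought to 1 common trimmed mean, and arrays are given in the order of replicates 1, 2 and 3. Group values are mean ± SD with n = 3. A change is the FORKO minus the WT mean of log2(signal + 5.73), a scale that makes changes of dim genes look smaller. Fshr, which checks the labels, read 99.6, 59.4 and 118.8 in WT against 1.2, 11.2 and 11.7 in FORKO ovaries (log2 change -2.90; limma adjusted p = 0.0102). Across all 22506 probe sets past a filter on dim signals, 372 (1.65%) had a limma adjusted p under 0.05, and 691 passed with the replicate number as a block. Of the 11198 genes tested through 1 probe set each, 16.8% had an unadjusted p under 0.05 in limma and 47.4% had a positive change. Counts of either kind given below for a list are to be read beside these shares. FORKO replicate 1 stood apart from the other FORKO arrays: its log2 signals correlated with theirs across probe sets at 0.934 and 0.936, against 0.976 between replicates 2 and 3. The change of each of the 9 genes, and of genes in other lists where it moved most, is also given without that array. In whole ovaries, fewer cells of a type and less RNA per cell cannot be told apart.

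The ovarian surface genes had higher mean signals in FORKO than in WT ovaries, but only 1 of the 9 measured genes, Gpm6a, rose by limma's test, against 1.30% of the 11198 genes tested that were called higher. The FORKO mean was above the WT mean for all 9 genes and their log2 changes were all positive, as were 47.4% of those of all genes tested. For 4 of them, Upk3b, Gpm6a, Lrrn4 and Cdh1, every FORKO array was above every WT array; among all genes tested this held for 10.7%. The median change of the 9 genes was 0.76 on the log2 scale, against -0.02 over all genes tested. Msln, Muc16 and Lrrn4 had WT means under the filter level of 20.4 and passed it through their FORKO signals, so the counts and the median over the 9 describe these genes and support nothing by themselves. On every one of the 9 genes FORKO replicate 1 was the highest of the 6 arrays, as it was on 21.6% of all genes tested; its median difference from the WT mean was 1.43, against 0.32 and 0.74 for replicates 2 and 3. Without it the median change was 0.53, Gpm6a was still the 1 gene called, and 3.19% of all genes tested were called higher.

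**Figure D1:**
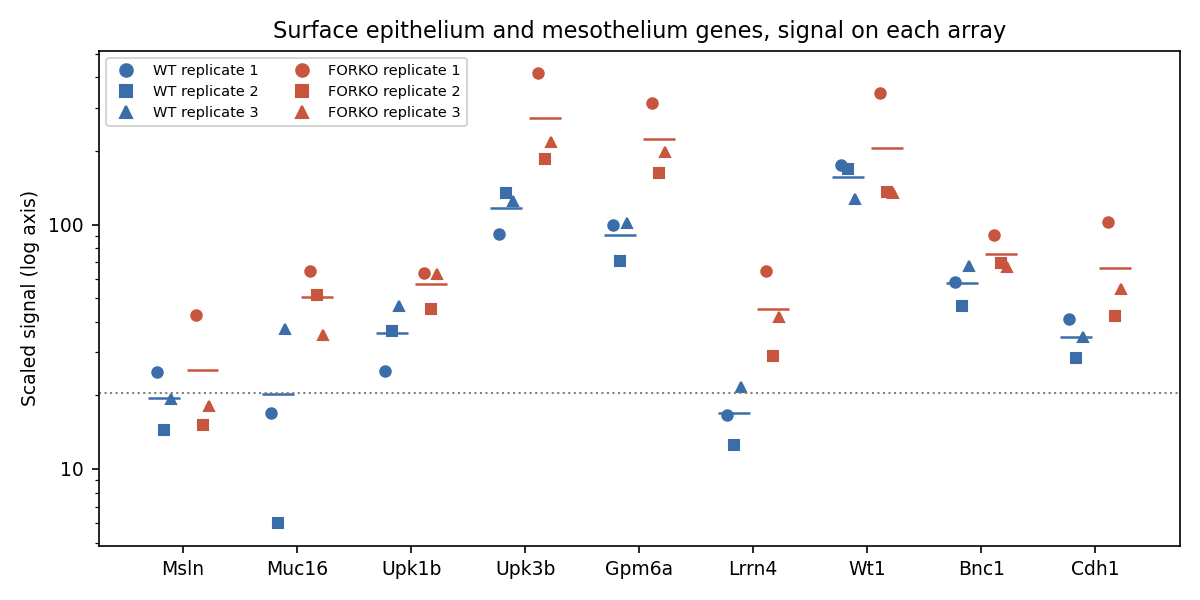
Scaled signal (log axis) of the standing probe set of each of the 9 genes on the 3 WT and 3 FORKO arrays; points are arrays, short bars are group means and the dotted line is the dim filter at 20.4. FORKO replicate 1 (red circles) is the highest array for all 9 genes, and the FORKO points of Wt1 other than that array lie among or near the WT points.

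Gpm6a encodes a membrane glycoprotein of the proteolipid family, best known from neurons and also made by mesothelial cells. Its brighter probe set read 99.3, 71.2 and 101.6 in WT and 313.4, 163.2 and 197.8 in FORKO ovaries. The groups were well apart, with the lowest FORKO array far above the highest WT array. The mean went from 90.7 ± 16.9 to 225 ± 78.6 (n = 3 in each), a log2 change of 1.22 ± 0.25 (SE; limma adjusted p = 0.0496). With 1 array left out the adjusted p was 0.0247 without FORKO replicate 1 and 0.0406 without FORKO replicate 2, but 0.106 without FORKO replicate 3 and 0.127, 0.202 and 0.122 without WT replicates 1, 2 and 3. The call was also lost with quantile normalization (limma adjusted p = 0.0503) and with arrays scaled to the same median (0.0730). Its second probe set read 24.6, 28.2 and 21.8 in WT and 81.1, 51.0 and 29.9 in FORKO, again with no overlap, and was not called (log2 change 0.88, limma adjusted p = 0.231). Nerve and glia markers were near the floor: of the 7 measured, 4 stayed under 20.4 on every array. The summed signal of the 7 was 67.2 to 91.9 in WT and 50.8 to 83.0 in FORKO. Tubb3, the 1 past the filter, had a change of -0.50 (limma adjusted p = 0.455). Sox10 and S100b, both under the filter, had no overlap between groups and went in opposite directions. Sox10 read 13.1, 7.9 and 2.9 in WT and 17.3, 24.2 and 13.6 in FORKO. S100b read 26.5, 9.6 and 23.7 in WT and 6.7, 7.9 and 1.6 in FORKO.

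Lrrn4 encodes a membrane protein with leucine-rich repeats and is a marker of mesothelium in the mouse. It read 16.7, 12.5 and 21.6 in WT and 64.6, 29.0 and 42.0 in FORKO. All FORKO arrays were above all WT arrays, with a ratio of means of 2.67, and 2.10 without FORKO replicate 1. The log2 change was 1.13 with a 95% interval of 0.45 to 1.81, which did not pass over all probe sets (limma adjusted p = 0.110). Without FORKO replicate 1 it was 0.87 (limma adjusted p = 0.153).

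The uroplakins are membrane proteins that form the stiff plaques of the bladder lining; Upk1b, a tetraspanin, and Upk3b are also made by mesothelium. Upk3b had the wider separation between groups of the pair. Its brighter probe set read 91.2, 134.7 and 125.1 in WT and 416.0, 185.1 and 217.9 in FORKO, and the groups did not overlap. The dimmer one read 37.6, 50.2 and 56.9 against 164.9, 91.3 and 73.5, also without overlap. The changes of both probe sets were alike, 1.11 ± 0.29 and 1.04 ± 0.29 on the log2 scale (SE), and neither passed limma's test (adjusted p = 0.105 and 0.125). Without FORKO replicate 1 the brighter one had a change of 0.77 (95% interval 0.31 to 1.23; limma adjusted p = 0.0699).

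Upk1b has 4 probe sets, and the size of its difference depended on which was read. The brightest read 25.1, 36.6 and 46.6 in WT and 63.6, 45.2 and 62.7 in FORKO, so that FORKO replicate 2 lay just under the highest WT array. Its log2 change was 0.61 (95% interval 0.05 to 1.17; limma adjusted p = 0.300), and 0.53 without FORKO replicate 1. Its name, like that of the second in brightness, carries the suffix _x, which marks a probe set whose probes may also bind other transcripts. The other 3 probe sets were dimmer and had larger changes of 0.73, 1.07 and 1.38, with limma adjusted p values of 0.465, 0.290 and 0.164. Of these, the third in brightness read 8.7, 17.1 and 18.6 in WT and 81.9, 24.0 and 22.8 in FORKO, and the fourth read 7.6, 21.3 and 3.9 against 56.4, 23.3 and 28.5. Both had all FORKO arrays above all WT arrays. For the second, FORKO replicate 3, at 15.5, lay below every WT array.

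**Figure D2:**
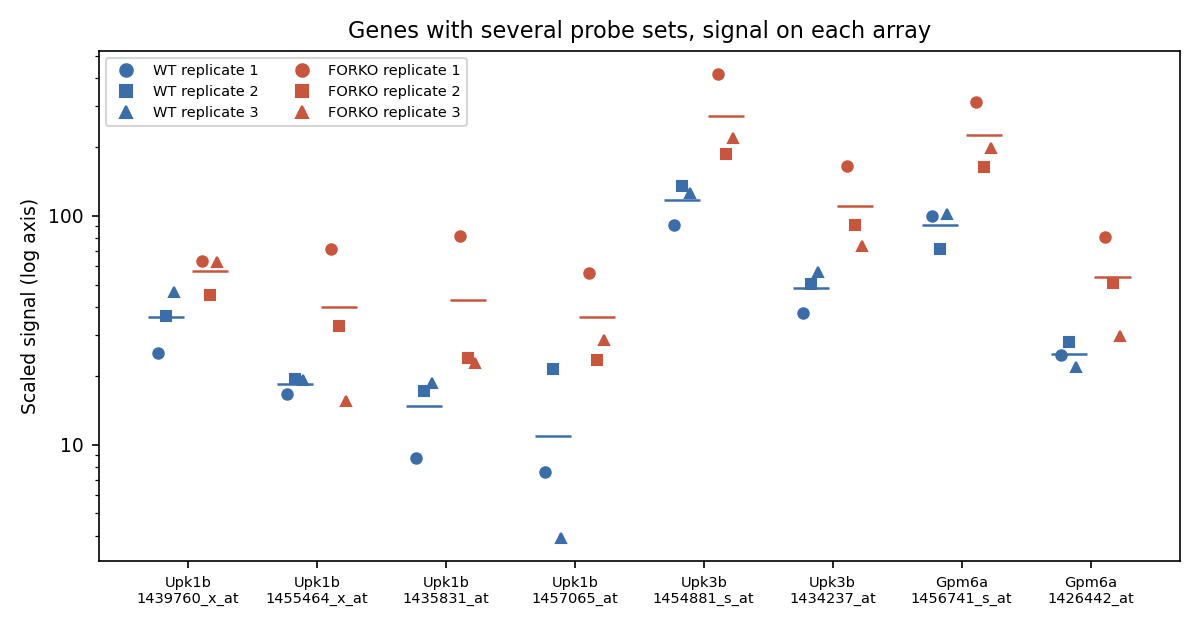
Scaled signal (log axis) of every probe set of Upk1b, Upk3b and Gpm6a, the 3 genes with more than 1; points are arrays and short bars are group means. All 8 probe sets have a higher FORKO mean, and the second of the Upk1b probe sets has 1 FORKO array, at 15.5, below all WT arrays. The dimmer probe sets of Upk1b passed the dim filter through their FORKO signals.

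The remaining uroplakins and the membrane-bound mucins were mostly dim. Of 7 such genes measured, only Upk2 passed the dim filter, at 19.5, 24.5 and 21.2 in WT against 7.0, 37.6 and 38.5 in FORKO, where the array with the highest Upk3b signal was the one with the lowest Upk2 signal. It did not pass limma's test (log2 change 0.08, adjusted p = 0.958); without FORKO replicate 1 the change was 0.68 (95% interval 0.12 to 1.23; limma adjusted p = 0.201). Urothelium and other lining epithelium markers, of which 4 of 7 stayed under 20.4 on every array, summed to 99.3 to 122 in WT and 65.3 to 140 in FORKO; besides Upk2, Trp63 passed the filter, with a change of -0.26 (limma adjusted p = 0.692), and -0.04 without FORKO replicate 1.

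Mesothelin, encoded by Msln, is a glycoprotein anchored in the outer membrane, and Muc16, the carrier of the CA125 antigen, is the large mucin that binds it. Their signals had different patterns over the arrays. Msln read 25, 14.5 and 19.3 in WT and 42.8, 15.2 and 18.1 in FORKO, so that FORKO replicates 2 and 3 lay within the WT range. Its change was 0.21 (95% interval -0.57 to 1.00; limma adjusted p = 0.845), and without FORKO replicate 1 it was -0.16. Muc16 read 17.0, 6.0 and 37.5 in WT and 64.3, 51.3 and 35.3 in FORKO. The FORKO mean of 50.3 ± 14.5 was 2.49 times the WT mean of 20.2 ± 16.0 (n = 3 in each), but WT replicate 3 lay above FORKO replicate 3. The log2 change of 1.27, larger than that of Gpm6a, had an SE of 0.43 and did not pass (limma adjusted p = 0.204); without FORKO replicate 1 it was 1.10 (limma adjusted p = 0.226).

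The differences of the pair of transcription factors were, with that of Msln, the smallest among the 9 genes. Wt1, a zinc-finger factor needed for the gonad and the coelomic lining to form, read 174.5, 169.2 and 127.3 in WT and 346.8, 136.3 and 134.3 in FORKO. FORKO replicate 1 was far above every WT array, while replicates 2 and 3 lay within the WT range. The change was 0.25 (95% interval -0.50 to 1.00; limma adjusted p = 0.807) and -0.19 without FORKO replicate 1 (95% interval -0.63 to 0.24). Granulosa markers were divided on that array. Of 9 listed, 8 were measured, and their summed signal was 10620 to 14670 in WT and 5836, 14430 and 15070 in FORKO; Amh was at or near 1 on every array. The low sum of FORKO replicate 1 came from the inhibin and activin subunits Inha, Inhba and Inhbb and from the activin-binding follistatin, Fst, while Foxl2, a transcription factor of granulosa cells, and Amhr2, through which anti-Müllerian hormone signals, read 849.5 and 2840.5 there, above their highest WT signals of 809.8 and 1745.1. Inhba and Fst, with the largest differences of that list, had changes of -1.64 and -1.14 (limma adjusted p = 0.631 and 0.717), which without FORKO replicate 1 were 0.36 and 0.61; the list's median went from -0.62 to 0.60. Of the 7 past the dim filter limma called 0 (2 at an unadjusted p under 0.05); it called Amhr2 with the replicate number as a block (adjusted p = 0.0346) and Esr2, an estrogen receptor, without FORKO replicate 1 (0.0186). The part of granulosa cells in the Wt1 signal was not tested.

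Bnc1, which encodes the zinc-finger protein basonuclin, read 58.3, 46.5 and 67.9 in WT and 91.0, 69.8 and 67.3 in FORKO. FORKO replicate 3 lay just under the highest WT array, and the change was 0.37 (95% interval -0.10 to 0.84; limma adjusted p = 0.465), or 0.24 without FORKO replicate 1. Oocyte markers, which cover the other known site of Bnc1, summed to 883 to 1069 in WT and 341 to 527 in FORKO over 9 genes. Of the 6 that passed the dim filter, Zp2 and Oosp1, which encode a zona pellucida protein and a secreted oocyte protein, fell, with log2 changes of -1.29 and -1.52 (limma adjusted p = 0.0112 and 0.00799), and all 6 had a negative change. Over all probe sets tested 1.65% were called in either direction. The call of Zp2 was lost without WT replicate 1 (limma adjusted p = 0.0531) or 2 (0.0567). The part of oocytes in the Bnc1 signal was not tested.

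Cdh1 encodes E-cadherin, which joins epithelial cells at adherens junctions. It read 41.1, 28.4 and 34.8 in WT and 102.2, 42.4 and 54.5 in FORKO, and the lowest FORKO array was just above the highest WT array. The mean went from 34.8 ± 6.34 to 66.4 ± 31.6 (n = 3 in each), with a change of 0.76 ± 0.30 (SE; limma adjusted p = 0.279) and of 0.42 without FORKO replicate 1. Oviduct and ciliated epithelium markers had higher summed signals on all FORKO arrays. They summed to 311 to 453 in WT and 637 to 1072 in FORKO over 11 genes; of the 6 past the dim filter all had a positive change (median 1.28) and limma called 0, with 4 at an unadjusted p under 0.05. Wfdc2, Cldn3 and Rsph1 had WT means of 9.25, 18.5 and 16.5, under the filter level, and passed through their FORKO signals, so this count and median support nothing by themselves. Wfdc2, a secreted protein of reproductive tract epithelium, read 1.6, 12.5 and 13.7 in WT and 52.1, 45.9 and 34.0 in FORKO (limma adjusted p = 0.0508), and Ovgp1, the oviductal glycoprotein, had a change of 1.93 (0.210). Without FORKO replicate 1 these were the 2 genes of the list that passed (limma adjusted p = 0.0366 and 2.24e-04). Epcam, another epithelial adhesion protein, read 299.6, 164.8 and 178.6 in WT and 627.2, 177.8 and 227.6 in FORKO, with FORKO replicate 1 the highest array as for Cdh1 (log2 change 0.50, limma adjusted p = 0.647; -0.04 without that array). Of the cilium genes, Rsph1, which encodes a radial spoke protein, read 5.0, 28.2 and 16.2 in WT and 39.3, 56.7 and 29.0 in FORKO, without overlap (log2 change 1.21; limma adjusted p = 0.209), while Foxj1, Tekt1 and Dnah5, and the oviduct factor Pax8, stayed under 20.4 on every array. The part of oviduct tissue in the Cdh1 signal was not tested.

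Genes of the proteins that work with Cdh1 and with the crumbs family had changes in both directions. Of 8 genes of the cadherin and catenin complex that passed the dim filter, limma called 0 (3 at an unadjusted p under 0.05), 2 changes were positive and 6 negative, and the median was -0.03, positive with arrays scaled to the bacterial spike controls (0.16). β-catenin, Ctnnb1, which links cadherins to the cytoskeleton, read 4812, 4413 and 4162 in WT and 4163, 4034 and 4023 in FORKO. Ctnnd1, the p120 catenin that binds cadherins, read 204.6, 169.3 and 183.0 in WT and 269.4, 256.2 and 231.9 in FORKO, without overlap (log2 change 0.43; limma adjusted p = 0.258). N-cadherin, Cdh2, had an array pattern unlike Cdh1: 391.1, 347.1 and 267.6 in WT against 360.6, 829.4 and 652.6 in FORKO (log2 change 0.80, limma adjusted p = 0.231), and it rose without FORKO replicate 1 (1.14, limma adjusted p = 0.00606). Cdh11, a cadherin of mesenchymal cells, had a change of -0.71 (limma adjusted p = 0.274), and -0.38 without that array. Of 15 apical polarity genes, which position the upper and lateral faces of epithelial cells, limma called 0 (1 at an unadjusted p under 0.05) and the median was 0.04, negative with arrays scaled to the same median (-0.02) and with quantile normalization. Lin7a read 69.3, 46.0 and 82.7 in WT and 45.4, 23.8 and 29.9 in FORKO, the largest change in that list (-0.89; limma adjusted p = 0.168), and it passed without FORKO replicate 1 (limma adjusted p = 0.0345). Pard6g followed, with a change of -0.39 (limma adjusted p = 0.361).

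Of genes linked to the change from epithelial to mesenchymal state, both regulators and others, 7 passed the dim filter. They were Snai2, Twist1, Zeb1, Zeb2, Vim, Fn1 and Bnc2. Of these 1, Zeb2, a repressor of Cdh1, fell, where 1.65% of all probe sets were called in either direction. Of the 7 changes 4 were positive and 3 negative, with a median of 0.24. Zeb2 read 803.9, 745.0 and 547.1 in WT and 385.4, 305.8 and 343.0 in FORKO, a change of -0.99 ± 0.19 (SE; limma adjusted p = 0.0321). All FORKO arrays were below all WT arrays, including FORKO replicate 1. The call held without WT replicate 3 (limma adjusted p = 0.0492) or FORKO replicate 1 (0.00696) and was lost without WT replicate 1 (0.128) or 2 (0.153) and without FORKO replicate 2 (0.0859) or 3 (0.0953). The related Zeb1 read 606.3, 347.4 and 363.7 in WT and 832.1, 522.7 and 458.7 in FORKO (log2 change 0.45, limma adjusted p = 0.495; 0.20 without FORKO replicate 1). Bnc2, the paralogue of Bnc1, had a change of -0.16 (limma adjusted p = 0.718).

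**Figure D3:**
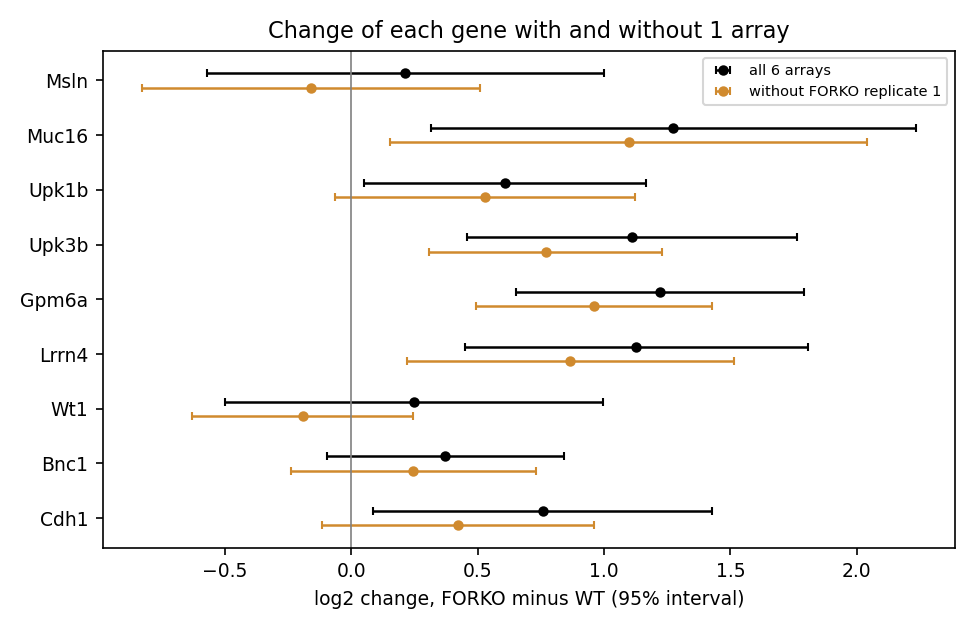
Change of each of the 9 genes (FORKO minus WT, log2 units) with its 95% interval from limma, over all 6 arrays (black) and without FORKO replicate 1 (orange). Without that array the changes of Msln and Wt1 move from 0.21 and 0.25 to -0.16 and -0.19. Those of Gpm6a, Upk3b, Lrrn4 and Muc16 keep intervals above 0, while the intervals of Upk1b and Cdh1 come to include 0. The intervals are not adjusted for the number of probe sets, and without that array only Gpm6a passed limma's test after adjustment.

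A second list held 21 further genes known from surface epithelium or mesothelium. Of the 17 that passed the dim filter, 3 rose (Krt8, Krt18 and Nkain4), 0 fell and 14 did not pass. Among all genes tested 1.30% were called higher. In the list 14 changes were positive and 3 negative, where 47.4% of all genes tested had a positive change. The median was 0.69, or 0.46 without FORKO replicate 1. The list was chosen with earlier results of these data known, and Nkain4 passed the filter through its FORKO signals. These counts and the median thus describe the genes listed and support nothing by themselves. Nkain4, a small membrane protein that partners the sodium pump, read 23.8, 18.6 and 13.1 in WT and 44.6, 69.1 and 57.0 in FORKO (log2 change 1.38 ± 0.26, SE; limma adjusted p = 0.0316). Its WT mean of 18.5 lay under the filter level. Unlike the 9 genes above, its lowest FORKO array was replicate 1. The keratin Krt8, a filament protein of simple epithelia, read 523.4, 530.2 and 535.7 on the FORKO arrays and 266.2, 278.3 and 210.7 in WT, so that FORKO replicate 1 did not stand out there either. Its partner Krt18 changed by 1.15 ± 0.22 (SE; limma adjusted p = 0.0321), a call lost with arrays scaled to the same median (0.0552). The calls changed with the arrays used: without WT replicate 1, 2 or 3 the count was 0 in each case, without FORKO replicates 1, 2 and 3 it was 4, 1 and 0, and the single call without FORKO replicate 2 was Krt8 (limma adjusted p = 0.0439). The calls over all 22506 probe sets moved as well. They were 112, 62 and 83 without WT replicates 1, 2 and 3. Without FORKO replicates 1, 2 and 3 they were 864, 316 and 143.

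The keratins Krt7 and Krt19 were highest on FORKO replicate 1. Krt7 read 44.3, 43.6 and 42.7 in WT and 154.0, 53.7 and 69.5 in FORKO, and Krt19 read 136.0, 94.4 and 107.8 against 439.9, 136.8 and 181.3. Both had no overlap between groups and neither passed (log2 changes 0.86 and 0.96; limma adjusted p = 0.260 and 0.263); without FORKO replicate 1 the changes were 0.44 and 0.48. Ezrin, Ezr, which ties the apical membrane to actin, read 195.5, 168.4 and 200.3 in WT and 443.2, 312.3 and 316.4 in FORKO (log2 change 0.89; limma adjusted p = 0.0509). With the replicate number as a block 5 genes of this list passed in place of 3, where 2.40% of all genes tested were called higher, among them Ezr (limma adjusted p = 0.0286) and Igfbp6, a binding protein of insulin-like growth factors (0.0341). Lgr5, a receptor for R-spondins that marks a subset of surface cells, read 65.2, 56.0 and 62.1 in WT and 43.0, 38.0 and 34.5 in FORKO (log2 change -0.60, limma adjusted p = 0.180). The other negative changes were those of Aldh1a1 and Aldh1a2, -0.07 and -0.14 (limma adjusted p = 0.837 and 0.813). Their means were 4983 and 274 in WT and 4742 and 245 in FORKO. Lhx9, Cd9 and Podxl had overlapping groups and changes of 0.39, 0.33 and 0.28. Without FORKO replicate 1 these were 0.14, 0.10 and 0.06. The mesothelial marker Calb2 was at 1.3 to 2.5 on every array and Bcam at 0.7 to 7.1.

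**Figure D4:**
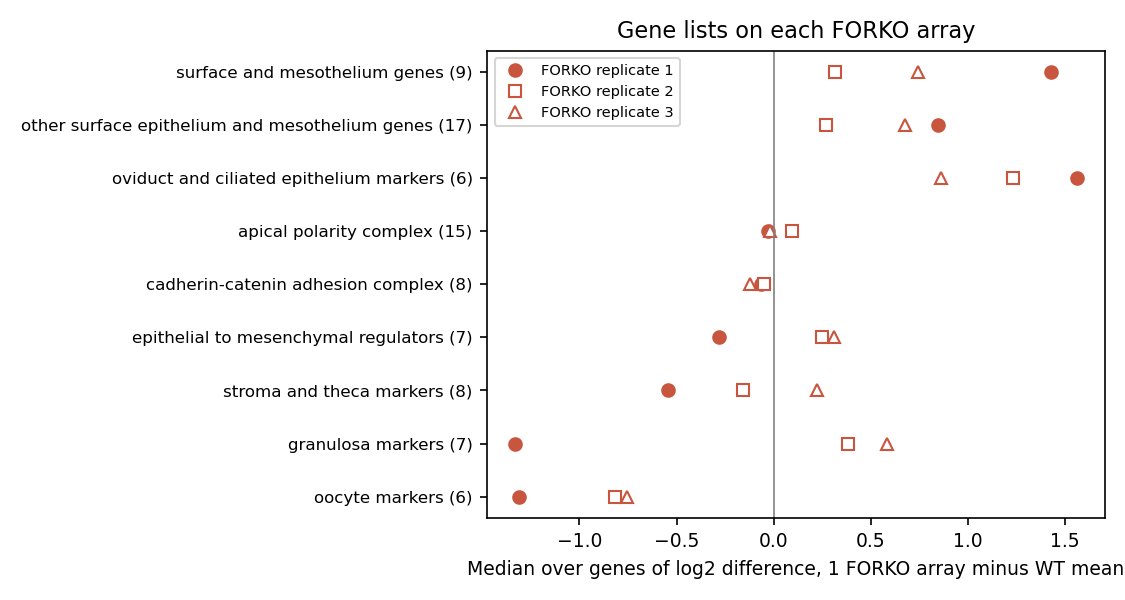
Median over the genes of each list that passed the dim filter (number in brackets) of the log2 difference between 1 FORKO array and the WT mean, with 1 point for each FORKO array. The surface and mesothelium genes are at 1.43, 0.32 and 0.74 in replicates 1, 2 and 3, granulosa markers at -1.33, 0.38 and 0.58, and oocyte markers below 0 on all 3 arrays.

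Fat, which a dissected ovary can carry, and the stroma and theca of the ovary itself were followed by their markers. Of 5 fat markers measured, 4 stayed under 20.4 on every array, and Adipoq read 12.5 to 13.6 in WT and 1.0 to 2.9 in FORKO; Fabp4, the 1 past the filter, had a change of 0.28 (limma adjusted p = 0.639), or 0.50 without FORKO replicate 1. Stroma and theca markers summed to 11200 to 12670 in WT and 11090 to 12520 in FORKO over 8 genes. Of the 8, limma called 0, with 4 positive and 4 negative changes. At an unadjusted p under 0.05 there were 5, against 16.8% of all genes tested. Lum and Col1a1 had the largest, -1.82 and -0.94 (limma adjusted p = 0.212 and 0.289), or -0.92 and -0.46 without FORKO replicate 1, and Lum passed with the replicate number as a block (0.0369). Dcn and Pdgfra, which encode the proteoglycan decorin and a growth factor receptor of stroma, had all FORKO arrays above all WT arrays, with changes of 0.47 and 0.45 (limma adjusted p = 0.105 and 0.204). Lum and Cyp11a1 had all FORKO arrays below all WT arrays, and Cyp11a1 changed by -0.54 (limma adjusted p = 0.0668). Cyp17a1 was highest on FORKO replicate 1, at 2477.2. Its change was 0.58 (limma adjusted p = 0.805), or -0.27 without that array. The part of these tissues in the differences above was not tested.

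Outside all lists, the named genes whose array pattern was most like the mean pattern of the 9 genes were Wnk4, Atp9a, Creg1, Prkcb and Slc31a2. Likeness was the root-mean-square difference, over the 6 arrays, of log2 deviations from the WT mean, and it was 0.057 for Wnk4, 0.0955 for Atp9a, 0.103 for Creg1 and 0.120 for both Prkcb and Slc31a2, against a median of 0.683 over all genes tested. Among the 9 genes themselves Cdh1 was nearest the mean pattern (0.143) and Muc16 farthest (0.587). Wnk4, a kinase that regulates ion transport, read 25.1, 22.5 and 30.9 in WT and 71.9, 35.6 and 45.3 in FORKO. Creg1, a secreted glycoprotein, read 344.9, 318.7 and 384.0 against 969.1, 432.7 and 560.7. None of the 5 passed limma's test, with adjusted p values of 0.102 to 0.232.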

How the data were processed

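Whole-ovary RNA of 3 WT and 3 FORKO samples was measured on 6 arrays. The deposited intensities are MAS5 signals, per the submitters' processing notes; their scaling target and the software's present or absent calls are not known from the labels. The members and lists were chosen with earlier results of these data known.

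Arrays were brought to 1 trimmed mean (2% cut from each tail) by factors of 0.895 to 1.09. The 64 control probe sets were left out, probe sets with a mean of at least 20.4 were kept, and log2(signal + 5.73) was fitted in R 4.3.3 with limma 3.58.1 (lmFit and two-sided eBayes with intensity trend), with p values adjusted by Benjamini and Hochberg's method over all 22506. For a single gene without overlap the exact two-sided permutation p is 0.1, and 3 against 3 arrays allow none smaller. The fit was tested on simulated data.

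Of the probe sets, 34958 had 1 symbol in the annotation, 932 had several and 9211 were not listed; by Entrez identifier 34754 matched GRCm38.p6, and 0 symbols changed. Other lists give their called genes, at most 4, or the 2 largest changes, plus genes named after their values were seen (such as Krt7, Ctnnb1, Ctnnd1, Rsph1, Foxl2, Amhr2, Dcn, Pdgfra, Cyp11a1, Cyp17a1, Zeb1, Bnc2, Lgr5 and Epcam).

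Deviations from group means of same-numbered arrays correlated at 0.195, 0.134 and 0.358, all over the level of 0.1 set for trying a block. They were not compared with those of differently numbered arrays, so they do not show that the numbers are pairs. The labels name no shared litter or day. The main fit took the arrays as unpaired, and the fit with the replicate number as a block is an alternative to it. Alternatives covered scaling (one to the bacterial spikes, RNAs added to each hybridisation), pseudocount, dim filter, variance model, replicate block, standing probe set and each array left out. Figures used matplotlib 3.10.9.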

Additional observations from a re-analysis of the deposited data

How the results depend on the processing

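The count of 372 probe sets was 647 with arrays scaled to the bacterial spikes, 221 with no dim filter, 691 with the replicate block and 62 to 864 with 1 array left out. Of the calls, 64.0% were higher in FORKO, against 50.6% with arrays scaled to the same median and 86.6% with the spikes, which moved the median change of all probe sets from -0.01 to 0.17. The count of 1 surface gene was 0 with quantile normalization, the same median, pseudocounts of 1 and 20, no dim filter, no intensity trend and the second probe set of a gene, where 4 to 6 of the 9 genes had an unadjusted p under 0.05 in limma. It was 3 with the spikes, where Upk3b (limma adjusted p = 0.0388) and Lrrn4 (0.0472) joined Gpm6a, 0 to 1 with 1 array left out (3 to 6 genes at an unadjusted p under 0.05), and 1 with the replicate block, which changed the call of none of the 9 genes. In the main fit 16.8% of all genes tested had an unadjusted p under 0.05 in limma. Of 140 alternative values for single genes, 2 changed sign, both without FORKO replicate 1; with 1 array left out, Msln ran from -0.16 to 0.45 and Wt1 from -0.19 to 0.47. The adjusted p of Gpm6a ran from 0.0146 to 0.231 over 16 alternatives, of which 5 passed. Arrays give no counts, and with no detection calls at hand signals near the filter, such as those of Msln, Lrrn4 and Muc16, are the least certain.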

Other observations

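Some genes beside the surface list had an array pattern opposite to it among the FORKO ovaries, of which Fn1, Ovgp1 and Lum are given here. They were singled out after their values were seen. Fn1, which encodes the matrix protein fibronectin, read 55.9, 493.4 and 436.7 on the FORKO arrays, against 117.0, 176.1 and 185.7 in WT; over all arrays it did not pass limma's test (adjusted p = 0.770), and without FORKO replicate 1 it rose (adjusted p = 0.00156). Ovgp1 read 27.2 in FORKO replicate 1, within the WT range of 12.7 to 34.4. Lum, which encodes the stromal proteoglycan lumican, read 70.8, 494.5 and 484.8 there and 612.5 to 1169.3 in WT. The array with the highest signals of the 9 surface genes thus held the lowest signals of Fn1 and Lum among the 6 arrays. It also held the lowest signals of genes in other lists, such as Inha (2008.8), Acta2 (755.5), Snai2 (412.1) and Cdh11 (76.3). The share of all genes that were lowest on that array was not counted, and a link to the surface genes was not tested.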
